A study of Mus musculus with 8 samples.

Results

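Expression of 10 cytokine receptor chains was described in 8F10 CD4 T cells that had developed in NOD or B16A hosts. The chains were those of the common gamma chain family (Il2rg, Il7r, Il4ra, Il21r, Il15ra, Il2ra and Il2rb) and of the IL-6 receptor group (Il6st, Il6ra and Il27ra). They were picked by name from the 46625 gene names of the count table, which writes them in capitals (IL7R, IL2RG, IL4RA, IL21R, IL15RA, IL2RA, IL2RB, IL6ST, IL6RA and IL27RA), with the host difference of Il7r in batches 1 to 3 already known. Host differences of these 10 genes are therefore given as a description and not as a test. All 10 passed the filter on low counts, which left 14607 genes.

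8F10 T cells recognise a peptide of insulin through their T cell receptor, and their donors lacked the endogenous receptor alpha chain. Bone marrow of these CD45.2 donors, with T and B cells removed, was given to CD45.1 hosts that had been irradiated below the lethal dose and so kept cells of their own. NOD hosts make native insulin, whereas B16A hosts are NOD-background mice whose insulin has alanine in place of a tyrosine of the B chain. Both groups had the strain label NOD/ShiLtJ. After 6 weeks the 8F10 cells were sorted from inguinal lymph nodes, distant from the pancreas, and 4 libraries were made per host, 1 in each of 4 labelled batches. Neither the age of the animals nor the number of animals behind a library is given in the labels used here, so the spread between libraries may be partly technical.

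Cytokine receptors of this class have no kinase of their own and signal through JAK kinases bound to their tails, which activate STAT factors. Il7r pairs with Il2rg to receive IL-7, the cytokine that keeps resting T cells alive, and is known to be high in naive and memory cells and low after activation. Il2rg is also the shared partner of the receptors for IL-2, IL-4, IL-15 and IL-21. Il6st is the shared signalling chain for IL-6, which first binds Il6ra, and for IL-27, which binds Il27ra.

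The bases before the RefSeq starts of Il7r and Il2rg are shown because Il7r is the chain with the largest host difference in batches 1 to 3 among the abundant members, and Il2rg is its signalling partner. Factors of the Ets family, among them GABP, are known activators of Il7r. The sequences come from the RefSeq promoter table of build GRCm38.p6, trimmed to bases that no GENCODE exon covers. In GENCODE the Il7r stretch is intron of 1 longer Il7r transcript that starts at 9530176, and the Il2rg stretch lies in an intron of Gm20489 on the same strand. Capitals mark matches, on either strand, to CCGGAAG or AGGAAGT (Ets-type), GTAAACA (forkhead-type) or TTCNNNGAA (STAT-type). The first 2 motifs share the core GGAAG.

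Il7r, chr15:9529877-9530040, minus strand: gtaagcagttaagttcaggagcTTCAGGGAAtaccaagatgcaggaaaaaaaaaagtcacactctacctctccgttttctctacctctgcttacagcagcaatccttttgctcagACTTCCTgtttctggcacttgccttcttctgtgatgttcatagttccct
Il2rg, chrX:101268256-101268505, minus strand: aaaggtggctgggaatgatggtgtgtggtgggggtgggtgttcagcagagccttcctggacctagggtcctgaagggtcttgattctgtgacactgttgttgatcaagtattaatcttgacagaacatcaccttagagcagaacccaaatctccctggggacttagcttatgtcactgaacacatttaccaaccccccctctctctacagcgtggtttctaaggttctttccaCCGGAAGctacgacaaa

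Il7r holds 1 match to AGGAAGT, which begins 49 bases before the start, and 1 to TTCNNNGAA, which begins 142 bases before it. Il2rg holds 1 match to CCGGAAG, which begins 17 bases before its start. Of 32851 windows of 250 bases in the table, 7.69% hold AGGAAGT, 6.91% CCGGAAG, 3.17% GTAAACA and 7.02% TTCNNNGAA. A window was listed for 8 of the 10 genes, of which Il2ra and Il6ra also hold AGGAAGT, Il15ra holds CCGGAAG and Il21r holds GTAAACA. These matches are letters in a window and no evidence of binding.

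Library depth and composition followed the batch. The 6 libraries of batches 1 to 3 held 4896593 to 6137666 counts and 29729 to 33175 detected genes. Both batch 4 libraries were deeper (28301805 counts for NOD and 28094237 for B16A) and detected fewer genes, 19751 and 20723. Each result is therefore given by batch. The cells carried helper T cell transcripts in every library: Cd4, the helper co-receptor, stood at 699 to 1204 CPM (counts per 1000000), above both chains of the cytotoxic co-receptor, Cd8a at 0 to 3.56 CPM and Cd8b1 at 62.6 to 186 CPM. CPM here are scaled to library sizes adjusted by the trimmed mean of M-values (TMM).

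Levels of different chains were compared per kilobase of annotated exon in batches 1 to 3. Il2rg was highest, with a median of 217 CPM per kilobase (187 to 253 in the 6 libraries). The next chains had like levels: Il6st (median 70.7, range 65.6 to 99.6), Il7r (68.5, 40.6 to 109), Il4ra (65.2, 53.3 to 78.7) and Il21r (64.2, 59.5 to 77.0). Neighbours in this order overlapped, and each was above the next in only 3 of 6 libraries. Il6ra (39.3, 33.2 to 46.0) and Il27ra (36.8, 32.8 to 49.6) came next and overlapped each other, while both lay below every library of Il21r. Il15ra (3.02, 2.50 to 4.18), Il2ra (2.37, 1.39 to 3.11) and Il2rb (0.588, 0.0755 to 0.883) were the lowest. Il2rg thus stood apart at the top, and Il15ra, Il2ra and Il2rb, its partners in the receptors for IL-15 and IL-2, stood at the bottom.

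In batch 4 the order differed. Il7r was second after Il2rg in both libraries, at 229 CPM per kilobase in the NOD and 340 in the B16A library, and Il6st dropped to the seventh place at 18.8 and 26.0.

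**Figure D1:**
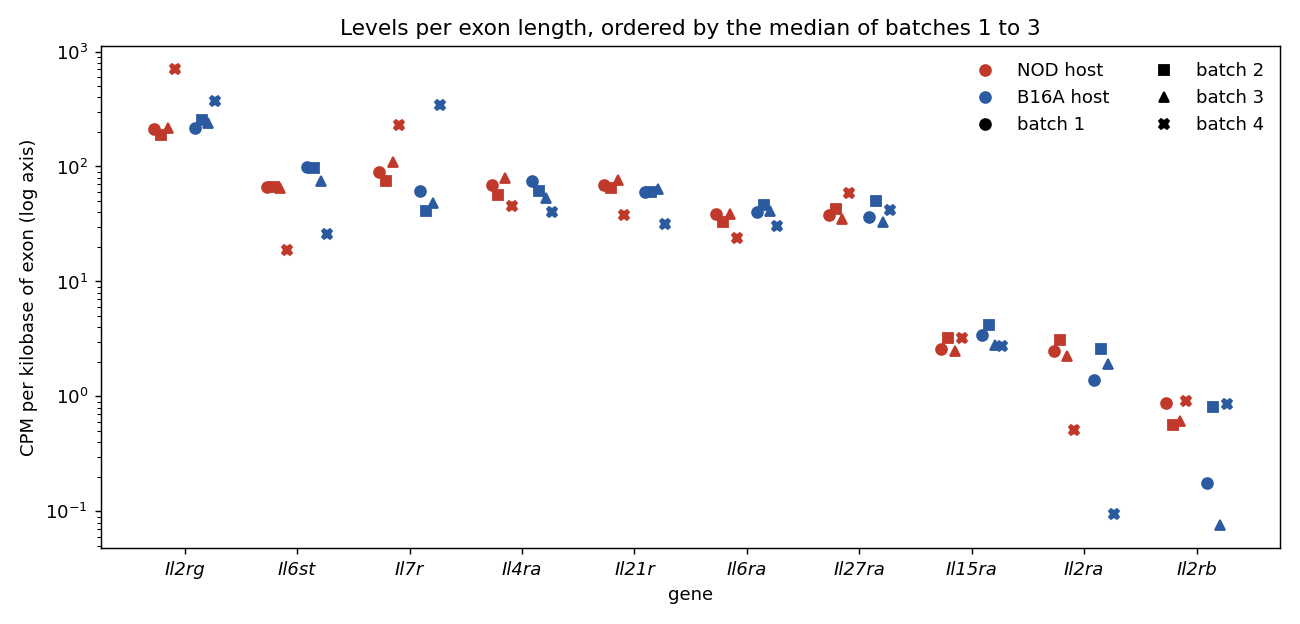
CPM per kilobase of exon (log axis) of the 10 receptor genes in each of the 8 libraries, ordered by the median of batches 1 to 3 (red NOD host, blue B16A host, symbols for batches). Each point is 1 library, so there is no error bar; Il2rg is highest in the 6 libraries of batches 1 to 3 at 187 to 253, and Il2rb, Il2ra and Il15ra are the lowest genes.

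Il7r, the private chain of the IL-7 receptor, was higher in the NOD library of batches 1 to 3 and lower in that of batch 4. It lies on chromosome 15 (9505788 to 9530176, minus strand, mm10). It stood at 415, 351, 509 and 1069 CPM in the NOD libraries of batches 1 to 4 and at 288, 189, 227 and 1586 CPM in the B16A libraries. Within batches 1 to 3 the hosts did not overlap; with batch 4 they did. The log2 ratio of NOD over B16A was 0.53 (95% counting interval 0.44 to 0.62), 0.89 (0.78 to 1.00), 1.17 (1.08 to 1.26) and -0.57 (-0.59 to -0.55) in batches 1 to 4. These exact intervals cover counting error only, and reads copied by PCR make them too narrow.

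The fitted host difference of Il7r depended on batch 4. Over all 8 libraries the mean was 586 ± 329 CPM for NOD hosts and 573 ± 677 CPM for B16A hosts (SD over 4 libraries of each host), with a log2 fold change of 0.03 and a standard error of 0.75. With the batch as a term it was 0.51 (standard error 0.23), and with batch 4 left out as well it was 0.86 (standard error 0.15). This last value is the one that brought Il7r into the set.

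The transcript of Il2rg, the shared gamma chain, did not follow that of Il7r. It lies on the X chromosome (101264378 to 101268255). Its NOD libraries stood at 506, 445, 513 and 1689 CPM and its B16A libraries at 521, 603, 568 and 893 CPM. In batches 1 to 3 the NOD libraries were the lower ones without overlap, by log2 ratios of -0.04 (-0.11 to 0.03), -0.44 (-0.51 to -0.36) and -0.15 (-0.22 to -0.08). In batch 4 the NOD library was higher by 0.92 (0.90 to 0.94). The fitted log2 fold change was 0.29 (standard error 0.48) without and 0.07 (standard error 0.19) with the batch term.

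Il7r and Il2rg thus lay on opposite sides in each batch, although Il2rg in batch 1 did not differ beyond counting error. The ratio of Il7r to Il2rg, on the scale of CPM per kilobase, needs no scaling between libraries. In batches 1 to 3 it was 0.420, 0.404 and 0.508 in NOD and 0.282, 0.161 and 0.204 in B16A libraries. In batch 4 it was 0.324 in the NOD and 0.909 in the B16A library, the reverse order.

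The summed level of transcripts that define T cells was also higher in the NOD library of each batch, though most of the single genes were not. The sum of 10 such markers (Cd3e, Cd3d, Cd3g, Cd4, Trbc1, Trbc2, Lck, Cd5, Cd28 and Thy1) was 7695, 5925, 9847 and 15803 CPM in NOD and 6972, 5422, 7025 and 12081 CPM in B16A libraries. Of the 10 markers 3 (Cd3d, Trbc2 and Lck) were higher in the NOD library in all 4 batches, against 7.43% of all tested genes. Cd4 itself was higher in 2 of 4 and Cd5 in 1 of 4. In batch 2 the hosts differed by more CPM in Trbc1 alone (1620 in NOD, 846 in B16A) than in the sum. The higher sum of that batch thus rested on Trbc1. Over batches 1 to 3 with the batch term, Trbc1 passed in edgeR (log2 fold change 0.69, adjusted p = 0.0472). In batch 4 the sum of the 10 markers and Il7r differed between hosts in opposite directions. The part of these markers in the Il7r difference was not tested. In bulk samples, fewer cells of a type and less RNA per cell cannot be told apart.

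**Figure D2:**
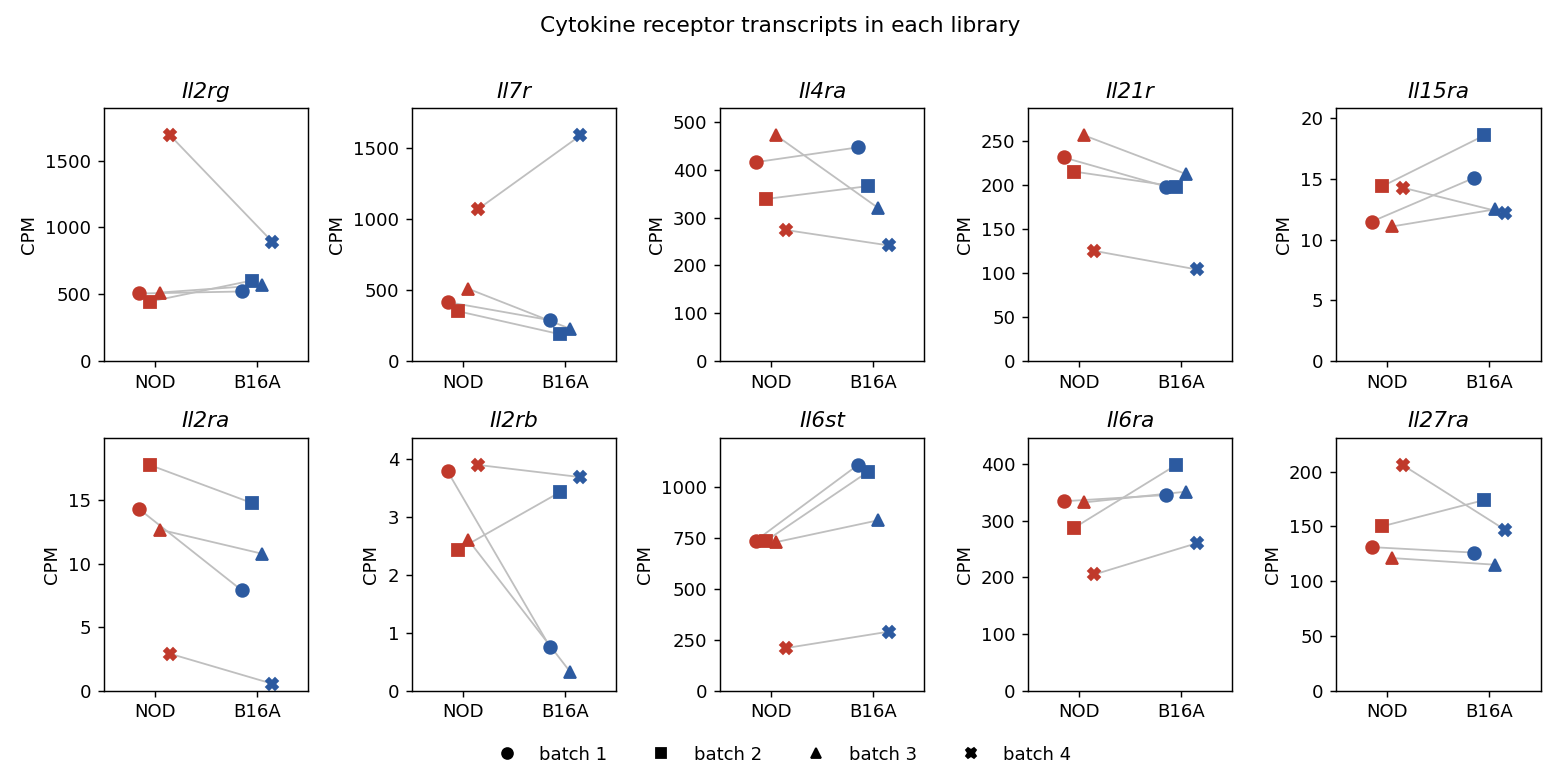
CPM of each receptor gene by host, with 1 point per library, symbols for batches 1 to 4 and grey lines joining the libraries of a batch. Il7r is lower in the B16A library of batches 1 to 3 and higher in that of batch 4 (1586 against 1069 CPM), while Il6st is lower in the NOD library of every batch.

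Il4ra and Il21r, the private chains for IL-4 and IL-21, are neighbours on chromosome 7 (125552120 to 125579474 and 125603429 to 125633570), 23954 bases apart. Il21r was slightly higher in the NOD library of each batch, and Il4ra had no common direction. Il21r stood at 231, 215, 256 and 125 CPM in NOD and at 198, 198, 212 and 104 CPM in B16A libraries. Its log2 ratios were 0.22 (0.11 to 0.33), 0.12 (0.00 to 0.24), 0.27 (0.17 to 0.38) and 0.27 (0.19 to 0.35). Batch 2 thus lay at the edge of counting error. Within batches 1 to 3 the hosts did not overlap in Il21r. The fitted log2 fold change was 0.22 with the batch term (standard error 0.13) and without it (standard error 0.33).

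Il4ra stood at 416, 339, 472 and 274 CPM in NOD and at 447, 366, 320 and 242 CPM in B16A libraries. Its log2 ratios were -0.10, -0.11, 0.56 and 0.18, so that batch 3 alone had a ratio above 0.5. A gene on the opposite strand, Gm44876, lies inside Il4ra, and since the use of strand in counting is not stated, reads of the overlap cannot be assigned.

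The partners of Il2rg in the IL-2 and IL-15 receptors were scarce. Il2ra, the high-affinity alpha chain for IL-2 and a marker of activated and regulatory T cells, lies on chromosome 2 (11642807 to 11693193). It was covered by 52 to 95 reads in each library of batches 1 to 3 and by 65 (NOD) and 13 (B16A) reads in batch 4. It stood at 14.3, 17.8, 12.7 and 2.91 CPM in NOD and at 7.92, 14.8, 10.8 and 0.545 CPM in B16A libraries. The NOD library was higher in each batch, by log2 ratios of 0.85 (0.33 to 1.38), 0.26 (-0.16 to 0.69), 0.23 (-0.26 to 0.73) and 2.42 (1.55 to 3.40). The intervals of batches 2 and 3 include 0, and the hosts overlapped. The fitted log2 fold change was 0.85 with the batch term (standard error 0.36) and 0.44 with batch 4 left out as well (standard error 0.27).

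Regulatory T cell markers stood beside Il2ra. The sum of 8 (Foxp3, Ikzf2, Ctla4, Tnfrsf18, Il10, Gpr83, Nrp1 and Itgae) was higher in the NOD library of each batch, with 67.3, 70.9, 67.5 and 111 CPM against 60.6, 45.1, 52.6 and 97.9 CPM. Tnfrsf18, a receptor also present on activated cells, made up much of that sum, at 26.4 to 82.8 CPM in NOD and 18.6 to 73.6 CPM in B16A libraries. In batch 3 the hosts differed by more CPM in Tnfrsf18 alone (43.8 in NOD, 23.8 in B16A) than in the sum. The higher sum of that batch thus rested on Tnfrsf18. Foxp3, the lineage factor of regulatory T cells, stood at 3.27, 4.30, 2.78 and 0 CPM in NOD and at 2.28, 8.27, 2.43 and 0.419 CPM in B16A libraries, with no common direction. The part of these markers in the Il2ra values was not tested.

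Il2rb, the signalling chain shared by the IL-2 and IL-15 receptors, lies on chromosome 15 (78479256 to 78495271). It had 2 to 22 reads per library in batches 1 to 3 and 87 and 88 in batch 4. It stood at 3.79, 2.43, 2.61 and 3.90 CPM in NOD and at 0.761, 3.43, 0.324 and 3.69 CPM in B16A libraries. In batch 4, the pair with the most reads, the log2 ratio was 0.08 with an interval of -0.36 to 0.52. In batch 1 it was 2.31 (0.88 to 4.07) and in batch 3 it was 3.01 (0.93 to 6.18), both beyond counting error but resting on 5 and 2 B16A reads. In batch 2 it was -0.50 (-1.61 to 0.56), so that the direction was not the same in every batch.

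Il15ra, which presents IL-15 to neighbouring cells, starts 12096 bases beyond Il2ra (11705290 to 11734317). It stood at 11.5, 14.4, 11.1 and 14.3 CPM in NOD and at 15.1, 18.6, 12.5 and 12.2 CPM in B16A libraries. Its log2 ratios of -0.39, -0.37, -0.16 and 0.23 had counting intervals that included 0 in batches 1 to 3 and began at 0.00 in batch 4.

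Il6st, the shared signalling chain of the IL-6 group, was lower in the NOD library of each batch. It lies on chromosome 13 (112464070 to 112510086). It stood at 735, 734, 728 and 209 CPM in NOD and at 1106, 1073, 835 and 289 CPM in B16A libraries. The 3 NOD libraries of batches 1 to 3 lay within 7 CPM of each other, and all lay below the 3 B16A libraries of these batches. The log2 ratios were -0.59 (-0.65 to -0.54), -0.55 (-0.60 to -0.49), -0.20 (-0.26 to -0.14) and -0.47 (-0.52 to -0.41).

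The fitted difference of Il6st was negative in every fit. Its log2 fold change was -0.46 without the batch term (standard error 0.53), -0.45 with it (standard error 0.13) and -0.44 with batch 4 left out as well (standard error 0.15). Its size without the batch term depended on single libraries, at -0.18 without NOD library 4, -0.28 without B16A library 1 and -0.74 without B16A library 4.

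Il6ra, the chain that binds IL-6 itself, was also lower in the NOD library of each batch, by less. It lies on chromosome 3 (89864059 to 89913196), where the antisense gene Gm42809 covers 281 bases of it. It stood at 334, 287, 332 and 205 CPM in NOD and at 345, 398, 351 and 260 CPM in B16A libraries. The log2 ratios were -0.05 (-0.14 to 0.04), -0.47 (-0.56 to -0.38), -0.08 (-0.17 to 0.01) and -0.35 (-0.40 to -0.29), so that batches 1 and 3 did not differ beyond counting error. The fitted value with the batch term was -0.24 (standard error 0.13).

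Il27ra, the private chain for IL-27, lies on chromosome 8 (84030294 to 84042589) and had no common direction. It stood at 131, 150, 121 and 206 CPM in NOD and at 126, 174, 115 and 147 CPM in B16A libraries. Its log2 ratios were 0.05, -0.21, 0.08 and 0.49. The ratio of Il27ra to Il6st per kilobase was nevertheless higher in the NOD library of each batch, at 0.566, 0.647, 0.530 and 3.13 against 0.362, 0.514, 0.436 and 1.61. For Il6ra over Il6st the same ratio was 0.584, 0.502, 0.587 and 1.26 against 0.401, 0.476, 0.540 and 1.16. Il6st is the denominator of both ratios, and the private chains were thus higher relative to it in the NOD library of each batch. For Il6ra this was slight in batches 2 and 3, where the counting intervals of the Il6ra and Il6st host ratios overlapped.

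**Figure D3:**
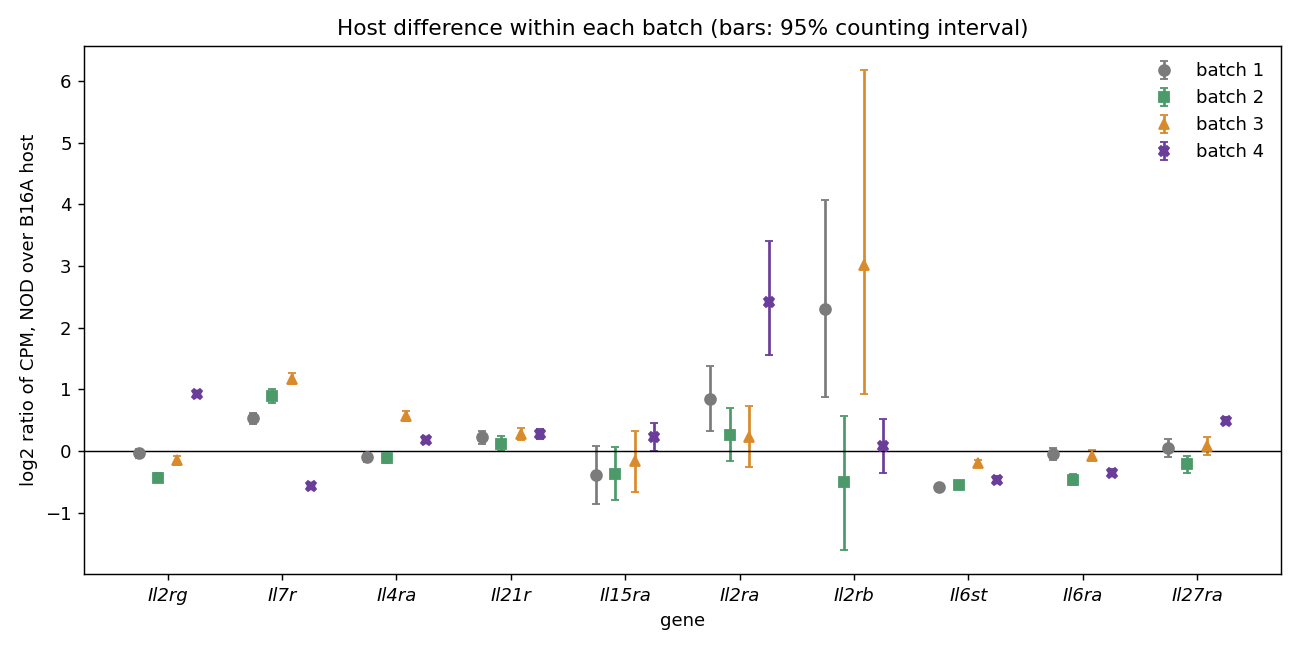
NOD over B16A ratio (log2 of the CPM) of each receptor gene within each of the 4 batches; each point is 1 pair of libraries and bars are exact 95% counting intervals. Il7r is above 0 in batches 1 to 3 and at -0.57 in batch 4, Il6st lies between -0.59 and -0.20 in all 4, and the widest bars belong to Il2rb and Il2ra.

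Counted over the set, 2 genes (Il2ra and Il21r) were higher and 2 (Il6ra and Il6st) were lower in the NOD library of all 4 batches. Of all 14607 tested genes, 7.43% were higher and 6.85% lower in all 4. Hosts did not overlap within batches 1 to 3 for 5 of the 10 genes, higher in NOD for Il7r and Il21r and lower for Il2rg, Il6ra and Il6st, against 10.2% of tested genes. With batch 4 included, 0 of 10 separated, against 0.596% of tested genes. Il7r was among the 7.31% of tested genes that were higher in NOD in batches 1 to 3 and lower in batch 4. In each of batches 1 to 3, 3 of the genes were higher in the NOD library (Il7r, Il2ra and Il21r, against 15.4% of tested genes) and 4 were lower (Il2rg, Il15ra, Il6ra and Il6st, against 14.4%). Because the genes were chosen with this contrast known, these counts carry no test.

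No receptor passed the threshold between hosts over 8 libraries. The edgeR quasi-likelihood test called 0 of 10 at an adjusted p under 0.05 without the batch term (0% of all genes called). At an unadjusted p under 0.05 it had 0 of 10, beside 34 of all 14607 tested genes. With the batch term it also called 0 of 10 (0% of all genes). At an unadjusted p under 0.05 it then had 3 of 10, beside 857 of all 14607 tested genes. DESeq2 called 0 of 10 with or without that term, although with it 0.185% of all genes were called (0.157% higher and 0.0274% lower). With the term, Il2ra, Il2rb and Il15ra had no adjusted p in DESeq2 and could not pass. In the fit of batches 1 to 3 with their term, edgeR called 1 of 10, Il7r, which is the choice of the set repeated, against 0.204% of all genes (0.159% higher and 0.0445% lower). That fit has 2 residual degrees of freedom, and the same 6 libraries without the term gave 0 calls among the 10. The median log2 fold change of the 10 genes was 0.12 both without and with the batch term, beside 0.03 and 0.01 over all tested genes.

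**Figure D4:**
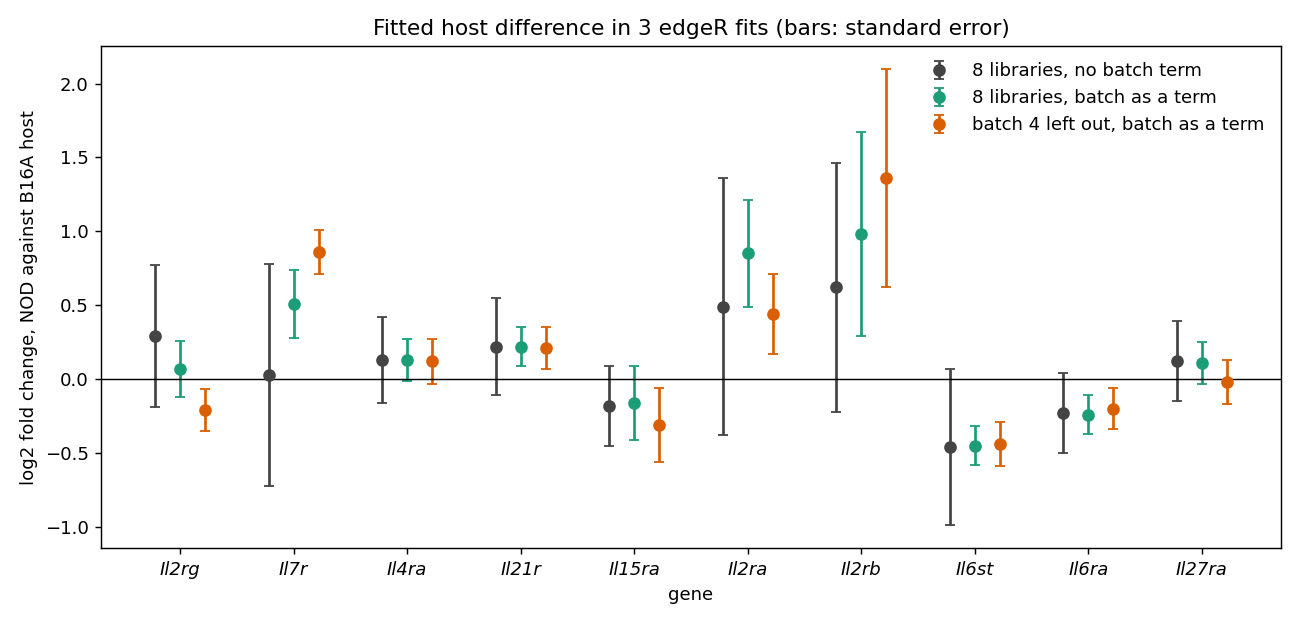
Fitted log2 fold change of each receptor gene, NOD against B16A host, in 3 edgeR fits: 8 libraries without a batch term, 8 libraries with it, and batches 1 to 3 with it (points; bars are standard errors). Il7r moves from 0.03 to 0.51 to 0.86 across the fits, and Il6st is at -0.46, -0.45 and -0.44.

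Batch 4 differed from batches 1 to 3 for most genes, and the receptors moved in both directions. This contrast had no part in the choice of the genes and was tested with edgeR with host as a term (2 against 6 libraries). The 2 libraries of batch 4 are from 1 batch. P-values of this contrast, here and below, therefore rest on spread between libraries and not between batches. Il7r rose in batch 4 by a log2 fold change of 2.20 (standard error 0.26, edgeR adjusted p = 1.51e-06). Il2rg rose by 1.35 (standard error 0.21, adjusted p = 1.64e-05 in edgeR). The fallers were Il2ra (-3.04, adjusted p = 1.81e-05), Il6st (-1.73, 6.33e-07), Il21r (-0.86, 0.000992), Il4ra (-0.54, 0.0290) and Il6ra (-0.49, 0.0325). Il27ra (0.44), Il2rb (0.94) and Il15ra (0.02) did not pass. Both hosts showed the direction of each of the 7 calls.

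These 7 calls in 10 genes stand beside 73.8% of all 22645 tested genes called, 23.3% higher and 50.5% lower, so the share is near the background. The median log2 fold change over all tested genes was -1.38 with TMM scaling, -1.53 with DESeq2 size factors and -1.98 with upper-quartile factors. The 7 calls kept their direction with each of these scalings. With TMM scaling, Il4ra, Il21r and Il6ra lay above that median and Il6st and Il2ra below it. Those of Il4ra and Il6ra were both lost when any of NOD library 1, 3 or 4 or B16A library 2, 3 or 4 was left out, and that of Il4ra also without B16A library 1. Il27ra became a call, higher in batch 4, without NOD library 2 or 3 or without B16A library 2 or 4, and Il2rb without B16A library 2. The filter counted too: with no filter on low counts the calls of Il4ra and Il6ra were lost, and with no filter or one of 1 CPM in 4 libraries Il27ra was called higher. Where a batch 4 library was left out, the spread of the remaining one was taken from the other libraries.

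Markers of T cell state also differed in batch 4, in both directions. Of 10 activation markers (Cd69, Cd44, Nr4a1, Egr1, Egr2, Icos, Cd40lg, Pdcd1, Tnfrsf4 and Tnfrsf9), 4 rose (Cd69, Icos, Cd40lg and Tnfrsf4), 2 fell (Egr1 and Tnfrsf9) and 4 did not pass in edgeR. Their sum was 476 to 1059 CPM over batches 1 to 3, against 5509 and 4373 CPM in the batch 4 libraries. Without Cd69 it was 373 to 761 CPM against 728 and 639 CPM, so that the higher sum rested on Cd69. Of 5 genes known from naive T cells, 2 rose. Ccr7, a homing receptor, went from 288 to 373 CPM in batches 1 to 3 to 2503 and 1448 CPM (log2 fold change 2.62, edgeR adjusted p = 4.05e-10). Klf2, a factor of resting T cells, went from 65.2 to 139 CPM to 1114 and 719 CPM (3.32, edgeR adjusted p = 3.78e-09). S1pr1 (0.43), Satb1 (0.18) and Dgka (-0.33) did not pass. Of the 10 markers that define T cells, 6 rose (Cd3e, Cd3d, Cd3g, Trbc2, Lck and Cd28) and 1 fell (Thy1). The other 3 did not pass, and 23.3% of all tested genes were higher in batch 4. Most genes of some other cell types fell, beside 50.5% of all 22645 tested genes lower in batch 4. Of tested genes, 4 of 6 B cell and 10 of 11 myeloid and dendritic genes were lower and 0 of either higher. Stromal and endothelial genes (4 of 5) and red cell and platelet genes (2 of 2) were also lower, with 0 higher. Of 6 NK and innate lymphoid genes 4 were lower and 1, Gzma, was higher (log2 fold change 2.64). Cd8a fell (-2.33) and Cd8b1 rose (0.90). B cell genes summed to 7.16 to 23.4 CPM in batches 1 to 3 and to 2.20 (NOD) and 2.98 CPM (B16A) in batch 4, and myeloid and dendritic genes to 59.3 to 91.1 CPM and to 12.3 and 6.96 CPM. In the same libraries 5 receptors were called lower (Il2ra, Il4ra, Il21r, Il6ra and Il6st) and 2 higher (Il7r and Il2rg). The part of other cell types in either direction was not tested. What else differed between the batches cannot be told apart from these differences.

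**Figure D5:**
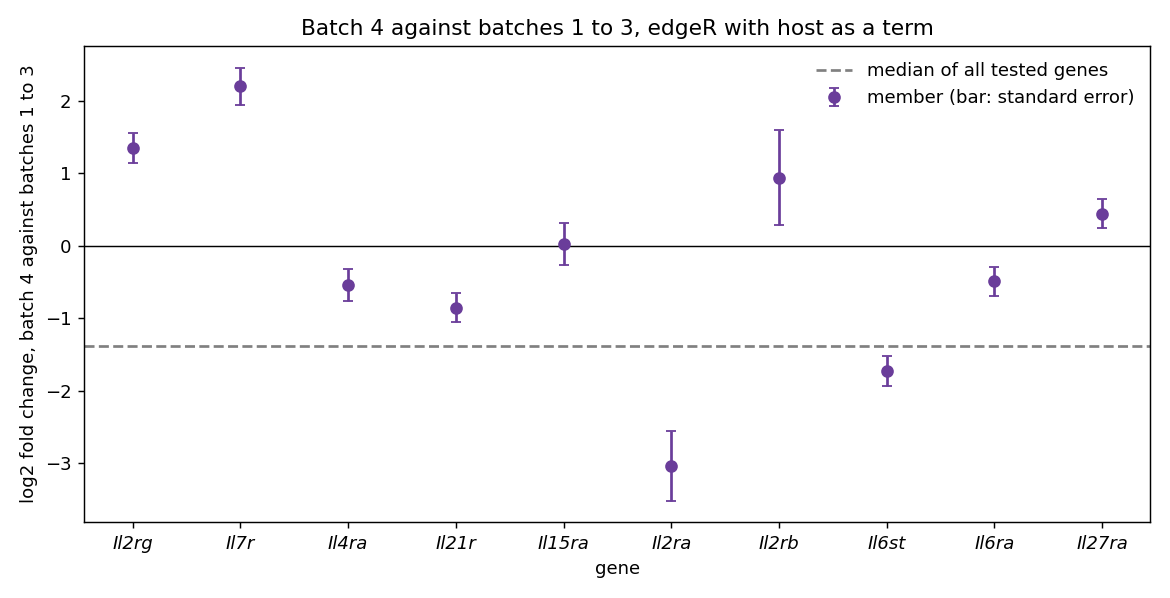
Log2 fold change of each receptor gene in batch 4 against batches 1 to 3 (edgeR with host as a term; bars are standard errors), with the median of all tested genes at -1.38 as a dashed line. Il7r and Il2rg lie above 0 at 2.20 and 1.35, and Il2ra and Il6st lie below the dashed line.

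Other genes of the pathway were taken from 5 lists of 73 genes set by role, of which 56 were tested. Between hosts 0 of 56 passed in edgeR without or with the batch term, in DESeq2 with it, or in edgeR over batches 1 to 3. Many of them, such as Ifnar2, Sh2b3, Il9r, Bcl2l1 and Osm, had no adjusted p in DESeq2 and could not pass there. At an unadjusted p under 0.05 edgeR had 0 without and 6 with the batch term, beside 34 and 857 of all 14607 tested genes. DESeq2 with that term had 5, beside 854 of 14607. The edgeR fit over batches 1 to 3 had 7 of 58, beside 1315 of 15716. The median log2 fold change of the 56 in edgeR was -0.06 without and -0.07 with the batch term, beside 0.03 and 0.01 over all genes.

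Of 12 regulators known to act on Il7r, 10 had a negative log2 fold change with the batch term (median -0.08), against 48.7% of all tested genes, and 0 passed. In DESeq2 with the same term 8 of 12 were negative, and Ets1 and Nr3c1 were at 0.00 in edgeR. Foxo1, the forkhead factor that activates Il7r in naive T cells, stood at 721, 689, 714 and 548 CPM in NOD and at 980, 977, 860 and 644 CPM in B16A libraries. Its NOD library was the lower in each batch, a log2 fold change of -0.36 with the batch term (standard error 0.13, edgeR adjusted p = 0.762). Foxo3, a related factor, was likewise lower in each batch, at 143, 144, 139 and 326 against 172, 215, 145 and 398 CPM (edgeR log2 fold change -0.30, adjusted p = 0.844). In batches 1 to 3, then, Il7r stood higher and Foxo1 lower in the NOD libraries.

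Of 16 JAK, STAT and feedback genes, 13 had a negative value with the batch term (median -0.08), against the same 48.7%, and 0 passed. The smallest p belonged to Sh2b3, an adaptor that restrains JAK signalling, with 26.3, 32.0, 29.3 and 15.1 CPM for NOD against 37.9, 46.2, 37.4 and 17.9 CPM for B16A libraries (log2 fold change -0.41, standard error 0.18, edgeR adjusted p = 0.842). Its NOD library was the lower one in each batch.

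Of 10 STAT5 and survival targets, 6 had a positive and 4 a negative value with the batch term, and 0 passed. Ccnd2, a cyclin of early cell cycle entry, was lower in each NOD library, at 254, 223, 308 and 371 CPM against 293, 406, 474 and 389 CPM (log2 fold change -0.44, standard error 0.15, edgeR adjusted p = 0.762). Bcl2l1, a survival gene of the BCL2 family, averaged 20.6 ± 12.1 CPM over NOD and 14.8 ± 1.92 CPM over B16A libraries (SD over 4 libraries of each host, log2 fold change 0.36, edgeR adjusted p = 0.942). Its NOD library of batch 4, at 38.5 CPM, was the high one.

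Of 22 other receptor chains 17 were tested, 6 positive and 11 negative with the batch term, and 0 passed. Ifnar2, a chain of the type I interferon receptor, stood at 18.9, 14.8, 21.2 and 24.3 CPM in NOD and at 26.0, 26.7, 23.3 and 34.2 CPM in B16A libraries (log2 fold change -0.48, standard error 0.20, edgeR adjusted p = 0.833). Il9r, another partner of the gamma chain, had a log2 fold change of 1.70 (standard error 0.79, edgeR adjusted p = 0.844), with 11.0 CPM in the NOD library of batch 2 and at most 2.41 CPM in the other 7. Of 13 ligands only Osm was tested (6.09 to 9.98 CPM in batches 1 to 3), and Il7, which stromal cells make, stood at 0 to 2.34 CPM.

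Markers of other cell types were low. Summed levels in NOD and B16A libraries were 2.20 to 23.4 and 2.98 to 12.8 CPM for 8 B cell genes, and 12.3 to 91.1 and 6.96 to 64.9 CPM for 12 myeloid and dendritic genes. They were 9.81 to 27.1 and 13.2 to 24.6 CPM for 7 genes of NK and innate lymphoid cells, and 0.538 to 6.88 and 0.210 to 4.68 CPM for 6 red cell and platelet genes. The 8 stromal and endothelial genes summed to 285 to 373 and 270 to 412 CPM, of which Pecam1, also present on naive T cells, was 284 to 364 and 269 to 403 CPM, while Pdpn and Ccl19 had 0 reads in every library. Cd8a and Cd8b1 together stood at 65.3 to 186 and 71.7 to 123 CPM, nearly all of it Cd8b1. The NOD library was higher in 2 of 4 batches for the B cell, myeloid and CD8 lists, in 1 for the NK and stromal lists and in 3 for the red cell list. The part of these markers in the host differences was not tested.

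The 5 genes whose pattern over the 8 libraries lay nearest to that of Il7r were Herc4, H2afv, Sec11c, Klhdc2 and Tmem208. Likeness was the root mean square distance between log2 CPM profiles, each centred on its own mean, among 7466 named genes with at least 10 CPM on average. It was 0.18 to 0.20 log2 units for the 5, against a median of 0.89. Herc4, a ubiquitin ligase gene, stood at 31.3, 29.4, 33.2 and 106 CPM in NOD and at 22.5, 15.9, 15.4 and 137 CPM in B16A libraries. Like Il7r, all 5 were higher in the NOD library of batches 1 to 3, lower in that of batch 4, and highest in batch 4. They were picked for likeness over these same 8 libraries, so the shared directions are no separate result.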

How the data were processed

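The authors deposited raw read counts per gene as 1 table of the series. Per the labels' protocols, RNA of the sorted cells was amplified (SeqPlex) before single-end sequencing at 50 bases a read. The submitters' processing notes list the tools STAR, HTSeq and DESeq2 and the build mm10, while versions, annotation and strand use were not given in the sources used here. Titles matched the 8 columns to samples.

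Counts were tested in edgeR 4.0.16 (R 4.3.3) with glmQLFit (robust) and glmQLFTest after filterByExpr and TMM, with Benjamini-Hochberg adjustment over all tested genes and a threshold of 0.05. Standard errors come from the F statistic. The host contrast had no batch term, and the fit with it is given beside it. The labels call the replicate numbers batches, so they pair libraries; deviations from host means correlated at r = 0.63, 0.70, 0.61 and 0.91 across genes for batches 1 to 4, beside 0.47 to 0.74 between hosts of different batches among 1 to 3. The NOD library of batch 2 correlated best with a B16A library of another batch. DESeq2 1.42.0 was an alternative. The tests were also run on simulated counts with the same spread for all genes, unlike these data, so no conclusion is drawn from that run. Exact binomial intervals (95%) of count ratios used TMM library sizes.

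Receptors and lists were chosen with earlier results of these data known. Named genes are all 10 receptors and, of each of 5 pathway lists, called genes or else the 2 with the smallest p with the batch term. Of 10 marker lists, 1 is given by single genes and not as a whole, and 1 named gene of the JAK and STAT list is not reported here. Positions and exon lengths come from GENCODE vM21 (GRCm38, the assembly of mm10), which held all 10 receptors. Among genes overlapping a receptor, Gm20489 covers Il2rg on the same strand and had 0 to 3 counts per library.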

Additional observations from a re-analysis of the deposited data

Results flagged for a closer look

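Of 20 groups of 4 libraries (10 genes in 2 hosts), 4 had a library farther from the rest than Dixon's 95% limit for 4 values, and in each it was the batch 4 library. Chance flags about 1 group in 20 where the 4 libraries are alike. Batch 4 differed from the rest for 73.8% of all 22645 tested genes, and the share of flagged groups over all genes is not given here. The 4 flags are therefore no result about the receptors. Il7r stood at 1586 CPM in the B16A library of batch 4 against 189 to 288 CPM in the other B16A libraries. Il2rg stood at 1689 CPM in the NOD library of batch 4 against 445 to 513 CPM in the others. Il21r stood at 104 CPM in the B16A library of batch 4 against 198 to 212 CPM. Il6st stood at 209 CPM in the NOD library of batch 4 against 728 to 735 CPM.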

How the results depend on the processing

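With the batch numbers as a term (replicate block) the count of receptors past the threshold between hosts was 0 over 8 libraries, as without it. With batch 4 left out, it was 1 with the block (Il7r, log2 fold change 0.86, standard error 0.15). Without the block it was 0 over the same 6 libraries (Il7r at 0.86, standard error 0.19). Of all genes, 32 passed with the block and 0 without it in these fits. DESeq2 over 8 libraries had 27 genes with the block and 0 without it. In each of 18 alternatives beside the 2 fits with the block just named, the count of receptors was 0. The count of pathway genes was 0 in all 20. The Il7r log2 fold change ran from -0.48 without the NOD library of batch 4 to 1.35 without the B16A library of batch 4, both of which keep batch 4 in 1 host only. It was 0.49, 0.37 and 0.28 with the block when batches 1, 2 and 3 were left out in turn. Il6st ran from -0.74 to -0.18 and was negative in all 20 alternatives. The signs of Il2ra, Il2rb, Il21r, Il15ra and Il6ra also held in all 20, and Il2rg, Il4ra and Il27ra changed sign in 3 each. In batch 4 against the rest, 5 to 8 receptors were called across the alternatives. The scalings added after the data were seen gave the same 5 receptors without overlap. Depth limits Il2rb, Il2ra and Il15ra.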

Other observations

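Downstream of these receptors, the genes of the JAK and STAT list also went both ways in batch 4 against batches 1 to 3, with 6 of 16 higher and 4 lower (edgeR, beside 23.3% and 50.5% of all genes). Chosen after their values were seen, Jak1, the kinase bound by most private chains, rose from 674 to 960 CPM in batches 1 to 3 to 2502 and 2487 CPM (log2 fold change 1.69, standard error 0.19, edgeR adjusted p = 1.72e-07). Jak3, the kinase bound by Il2rg, fell from 53.1 to 72.6 CPM to 7.22 and 9.85 CPM (-2.77, standard error 0.27, edgeR adjusted p = 2.62e-08), while Il2rg itself rose. The next 2 genes are from other lists. Pim1, a STAT5 target, rose from 19.0 to 32.4 CPM to 897 and 797 CPM (5.08, standard error 0.21, edgeR adjusted p = 2.16e-13). On its list 4 of 10 genes were higher and 0 lower. Ifngr2, a chain of the interferon gamma receptor, rose from 41.4 to 51.3 CPM to 681 and 820 CPM (4.08, standard error 0.18, edgeR adjusted p = 3.33e-13). Most of its list of other receptor chains went the other way, with 13 of 22 lower and 2 higher. With the batch term, the fitted host log2 fold changes of Jak1, Jak3, Pim1 and Ifngr2 were smaller in size than their standard errors. The batch and what came with it cannot be told apart.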
